A study of Mus musculus with 386 samples.

Results

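At postnatal day 2.5 (P2.5), when oocytes of the mouse ovary are being enclosed in primordial follicles, single oocytes differed widely in the transcripts of the immediate early genes Fos, Egr1, Jun and Junb. The libraries described here were the 25% of P2.5 libraries with the highest summed level of these 4 genes, the top group, and the 25% with the lowest, the bottom group. The level was in CPM, which scales the gene counts of each library to a common total without spike-in RNA. The choice gave 79 top and 79 bottom libraries out of 386 in the series, of which 47 are of stage P6.5, 22 of stage E17.5 and all others of stage P2.5. The lowest sum in the top group was 397.2 CPM and the library just outside it stood at 396.1 CPM. The highest sum in the bottom group was 138.5 CPM and the library just outside it stood at 139.2 CPM, so neither limit fell in a gap. Because the sum chose the libraries, the levels of the 4 genes are given as a description, and every comparison between the groups concerns other genes.

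Immediate early genes are transcribed within minutes of a stimulus without new protein synthesis, usually downstream of MAP kinase signalling, the serum response factor SRF with its partner factors, and CREB. Fos, Fosb, Jun and Junb encode subunits of the transcription factor AP-1, and Egr1 and Egr2 encode zinc finger factors of the EGR family. Their products switch on later genes, among them phosphatases and RNA-binding proteins that end the response. In the ovary these genes are best known from granulosa cells after gonadotrophin stimulation.

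The top and bottom groups both hold female germ cells of the P2.5 stage, picked by hand after the ovaries had been dissociated with enzymes, and were separated by the sum alone. Libraries of postnatal day 6.5 (P6.5) and embryonic day 17.5 (E17.5), from cells picked in the same way, served for a look-up and for reference levels. Each library was made from 1 cell with Smart-seq2, which copies full-length polyadenylated RNA. The labels give a stage and a cell type for each library and name no strain, genotype, treatment, animal or litter. Each stage was therefore treated as 1 sample of many cells, no test was made between groups, and what follows describes these libraries.

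Before any comparison, libraries that stood apart were marked. In 24 pairs of P2.5 libraries the counts were nearly the same (median chi-square per gene 0.686 to 1.03, against 3.54 in the closest other pair), and a pair with both libraries in 1 group was counted as 1 cell. That left 71 top cells and 73 bottom cells, and 24 fewer cells than libraries at P2.5. Libraries held a median of 5.19e+06 gene counts in the top group and 6.69e+06 in the bottom group, and 15836 and 16461 genes with a count. Mitochondrially encoded genes took a median of 2.99% of counts in the top group and 2.56% in the bottom group. Germ cell markers (Ddx4, Dazl, Dppa3, Mael, Taf4b, Sycp3) were seen in 79 of 79 libraries of both groups, at 2002 to 6130 CPM in the top cells and 2849 to 7034 CPM in the bottom cells. Markers of at least 1 other cell type (at least 10 counts of a marker list after thinning to 100000 counts) were seen in 12 top libraries (15.2%, exact 95% interval 8.10 to 25.03%) and 6 bottom libraries (7.59%, 2.84 to 15.8%). The intervals of these shares take libraries as independent draws, count both libraries of a pair, and leave out the spread between animals. Granulosa markers were seen in 5 top and 0 bottom libraries (0 of 79, exact 95% interval up to 4.56%), and stroma markers in 7 top and 0 bottom libraries. The ratios of the genes the results turn on are therefore given also without the 45 P2.5 libraries that show such markers, with groups of 68 libraries drawn anew from the others.

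The sum of the 4 genes ran without a break across the P2.5 oocytes and was mostly Egr1. It had a lowest, median and highest value of 397, 529 and 2228 CPM in the top group, against 23.6, 97.1 and 138.5 CPM in the bottom group. Over all P2.5 libraries Egr1 made up a median of 75.8% of the sum, Fos 14.4%, Junb 3.38% and Jun 1.55%. The 4 genes were ordered only loosely alike: Spearman's rho over these libraries, which share stage and handling, was 0.51 between Fos and Egr1 and 0.14 to 0.27 for the other pairs. When the 79 highest libraries were taken by each gene in turn, 71 of those by Egr1 alone, 49 by Fos, 34 by Junb and 28 by Jun were in the top group by the sum. The groups are thus close to a ranking by Egr1.

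Egr1 had a lowest, median and highest value of 219.9, 416 and 1484 CPM in the top cells, against 8.67, 65.9 and 137.7 CPM in the bottom cells. Fos had 3.48, 80.2 and 653 CPM in the top cells and 0, 11.2 and 61.3 CPM in the bottom cells. The Egr1 ranges did not overlap, which the choice by the sum largely fixes, and those of Fos did. Junb and Jun were low in most cells of both groups, with medians of 13.8 and 6.08 CPM in the top cells and 3.80 and 1.60 CPM in the bottom cells, and Jun reached 624 CPM in a top cell. Leaving a gene out of the sum and drawing the groups by the other 3 gives levels that did not choose the libraries. Drawn that way, Fos averaged 109.1 CPM in the top cells and 25.8 CPM in the bottom cells (log2 ratio 2.06), and Egr1 343 CPM in the top cells and 148.997 CPM in the bottom cells (1.20). Jun averaged 25.6 CPM in the top cells and 6.71 CPM in the bottom cells (1.86), and Junb 23.8 CPM in the top cells and 8.62 CPM in the bottom cells (1.41). Without the libraries with markers of other cell types these ratios were 1.91 for Fos, 1.15 for Egr1, 0.80 for Jun and 1.04 for Junb. In the top group by the full sum, 64.2% of the Jun level, 32.1% of Junb, 28.95% of Fos and 21.5% of Egr1 lay in the 12 cells with such markers.

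**Figure D1:**
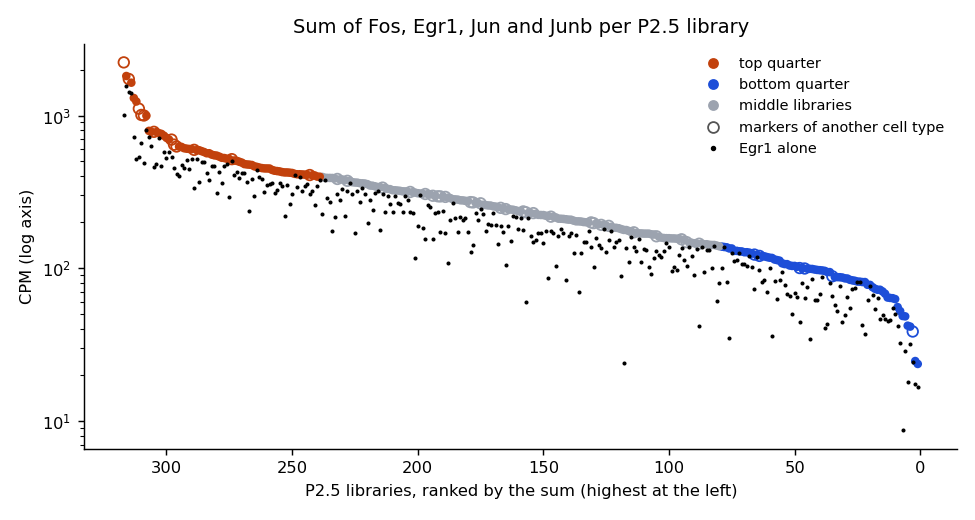
Summed CPM of Fos, Egr1, Jun and Junb (log axis) in each P2.5 library, ranked with the highest at the left. Coloured points are the top and bottom groups of 79 libraries, open circles are libraries with markers of another cell type, and small black dots give Egr1 alone, which runs close under the sum; the sum spans 23.6 to 2228 CPM.

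A log2 ratio below is that of the mean CPM over the top cells to the mean over the bottom cells, after adding 0.5 CPM to both. A gene was measured with at least 1 mean CPM in either group and a count in at least 3 cells. By this rule 14932 genes were measured, and their median ratio was 0.03. Of them 651 (4.36%) were at least 2-fold higher in the top group and 0.77% at least 2-fold lower. Without the libraries with markers of other cell types these shares were 2.59% and 1.05% of 14631 genes.

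The EGR relative Egr2 and the AP-1 subunit gene Fosb followed the sum more closely than most other genes and were low in most bottom cells. Egr2 (chr10:67535475-67542188, plus strand, GRCm38) had a lowest, median and highest value of 0, 39.3 and 392 CPM in the top cells, against 0, 4.28 and 86.9 CPM in the bottom cells. The ranges overlapped, but 61 of 71 top cells lay above the bottom median and only 3 of 73 bottom cells lay above the top median. Its log2 ratio was 2.55, and 2.26 without the libraries with markers of other cell types. Fosb (chr7:19302696-19310051, minus strand) had 0, 19.3 and 390 CPM in the top cells, against 0, 2.40 and 50.8 CPM in the bottom cells. Of the top cells 62 lay above the bottom median, and the log2 ratio was 2.33, or 2.13 without those libraries. Ratios of summed counts were 2.53 for Egr2 (exact conditional Poisson 95% interval 2.49 to 2.57) and 2.55 for Fosb (2.50 to 2.60). These reads carry no molecular identifiers, so the intervals cover counting error alone and not the spread between cells or animals. Across 4 groups of nearly equal size by the sum, low to high, the median of Egr2 was 4.28, 6.42, 15.7 and 39.3 CPM and that of Fosb 2.40, 5.66, 12.6 and 19.3 CPM. Both medians were higher in each next group.

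Promoter sequences are shown for 4 of the 10 genes with the highest rank correlation with the sum, because their windows hold the best known elements of immediate early promoters. Each is a RefSeq promoter of build GRCm38.p6, from 250 bases before to 50 after an annotated start, printed along the gene's strand. Capitals mark a CArG box, the SRF site made of CC and GG around a run of A and T bases, in Egr2 and Dusp5, and the EGR site GCGGGGGCG in Fosb and Ubald1.
Egr2, chr10:67537619-67537918, plus strand: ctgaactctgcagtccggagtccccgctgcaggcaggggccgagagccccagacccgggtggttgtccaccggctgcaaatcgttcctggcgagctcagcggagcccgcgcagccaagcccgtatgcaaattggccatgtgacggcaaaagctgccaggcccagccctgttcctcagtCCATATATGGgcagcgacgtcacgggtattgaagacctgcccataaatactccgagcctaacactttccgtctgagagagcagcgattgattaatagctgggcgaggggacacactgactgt
Dusp5, chr19:53528895-53529194, plus strand: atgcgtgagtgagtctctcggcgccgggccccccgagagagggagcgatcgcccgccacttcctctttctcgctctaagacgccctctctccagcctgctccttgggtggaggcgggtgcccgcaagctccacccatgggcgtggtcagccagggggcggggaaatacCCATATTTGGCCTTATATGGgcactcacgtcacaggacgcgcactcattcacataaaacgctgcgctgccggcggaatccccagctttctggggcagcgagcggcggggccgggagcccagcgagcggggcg
Fosb, chr7:19309996-19310295, minus strand: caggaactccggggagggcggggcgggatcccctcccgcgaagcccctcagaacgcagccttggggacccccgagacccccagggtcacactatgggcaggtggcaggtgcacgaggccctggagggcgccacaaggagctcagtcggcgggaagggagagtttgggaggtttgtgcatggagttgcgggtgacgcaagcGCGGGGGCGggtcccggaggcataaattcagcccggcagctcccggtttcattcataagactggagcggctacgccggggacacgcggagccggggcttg
Ubald1, chr16:4879802-4880101, minus strand: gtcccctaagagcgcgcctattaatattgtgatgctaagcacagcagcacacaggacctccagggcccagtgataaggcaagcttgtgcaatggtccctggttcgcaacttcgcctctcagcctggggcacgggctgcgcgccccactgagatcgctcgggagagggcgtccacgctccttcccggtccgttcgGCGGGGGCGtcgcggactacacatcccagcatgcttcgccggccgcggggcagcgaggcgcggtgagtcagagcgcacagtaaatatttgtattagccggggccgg
The CArG box of Egr2 begins 72 bases before the start, and the adjoining CArG boxes of Dusp5 begin 82 and 72 bases before it. The EGR site begins 50 bases before the start in Fosb and 56 bases before it in Ubald1. Of the 10 genes, 8 matched a RefSeq promoter by symbol. They have 12 promoters, some of which overlap. Searched on both strands, a CArG box was in 5 of the 12 (4 of Egr2 and 1 of Dusp5), against 1.63% of all 32851 promoters, and the EGR site in 3 (Chka is the other gene), against 2.91%. The CRE TGACGTCA and the AP-1 site TGANTCA were each in 1 of the 12, against 1.79% and 7.81% of all promoters. Among the 55 promoters of 41 named immediate early genes, the 4 selecting genes included, 7 held a CArG box (12.7%), 9 an EGR site (16.4%), 5 a CRE (9.09%) and 1 an AP-1 site (1.82%). Overlapping Egr2 windows count the same box more than once. Counted by gene, a CArG box was in 2 of the 8 and 4 of the 41 genes, against 488 of all 27025. The EGR site was in 3 of the 8 and 9 of the 41 genes, against 894 of all 27025. Such matches describe letters in these windows, and the matching window of Fos held neither.

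Of the other AP-1 genes, 9 of 11 listed were measured and 9 of 9 lay above 0, against 54.5% of all measured genes, with a median of 0.81 (0.62 without the libraries with markers of other cell types). Of the 9 genes 2 were at least 2-fold higher, against 4.36% of all genes, and 1 of 9 without those libraries, against 2.59%. Besides Fosb, the small Maf genes Mafk and Mafg, whose products pair with other leucine zipper factors, had medians of 33.1 and 21.1 CPM in the top cells and 21.8 and 12.7 CPM in the bottom cells (log2 ratios 0.81 and 0.89). Atf3, a stress-responsive factor, reached 2-fold with a log2 ratio of 1.60 that was 0.59 without those libraries, and its medians were 0.258 CPM in the top cells and 0.276 CPM in the bottom cells. Among the orphan nuclear receptors, Nr4a1 had a ratio of 1.96 (1.28) with medians under 1 CPM in both groups, and 68.1% of its top level lay in the 12 cells with markers of other cell types. Nr4a2 had medians of 4.69 CPM in the top cells and 1.47 CPM in the bottom cells (0.86, or 0.91 without those libraries).

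Rank correlations with the sum were ordered among named genes that the choice did not use, with at least 10 mean CPM and a count in 50% of P2.5 cells. Among them Ier2, which encodes a small nuclear protein of the immediate early class, had the highest (rho 0.58 over all P2.5 cells, which share stage and differ in depth). It had a lowest, median and highest value of 57.1, 207.2 and 1006 CPM in the top cells, against 12.4, 85.96 and 274.3 CPM in the bottom cells. The ranges overlapped, and 68 of 71 top cells lay above the bottom median while 6 of 73 bottom cells lay above the top median. The log2 ratio was 1.28, and 1.20 without the libraries with markers of other cell types. Nfkbiz, an inducible regulator of NF-kappaB target genes, had 0.452, 49.7 and 319.6 CPM in the top cells, against 0.412, 19.9 and 112.97 CPM in the bottom cells (1.61, or 1.47 without those libraries). Its groups overlapped widely, with 62 top cells above the bottom median.

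Apart from Dusp5 (log2 ratio 1.69, described below), the other genes with the highest rank correlations had ratios near 2-fold or below it. Ubald1 had 40.7, 151.5 and 454 CPM in the top cells, against 9.61, 83.8 and 224.3 CPM in the bottom cells (0.89). Chka, which encodes choline kinase, had medians of 56.6 CPM in the top cells and 32.8 CPM in the bottom cells (0.98). Atf4, the central factor of the integrated stress response, had medians of 117.95 CPM in the top cells and 66.5 CPM in the bottom cells (0.80), and the imprinted zinc finger gene Peg3 had 122.5 CPM in the top cells and 63.1 CPM in the bottom cells (0.88). The helix-loop-helix inhibitor gene Id2 had a median of 188.5 CPM in the top cells and 97.4 CPM in the bottom cells (0.81). Without the libraries with markers of other cell types the ratios of the 10 genes ran from 0.60 to 2.26. Id1 (0.85) and Id3 (0.66), whose family responds to BMP signals as well as to growth factors, lay on the same side.

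**Figure D2:**
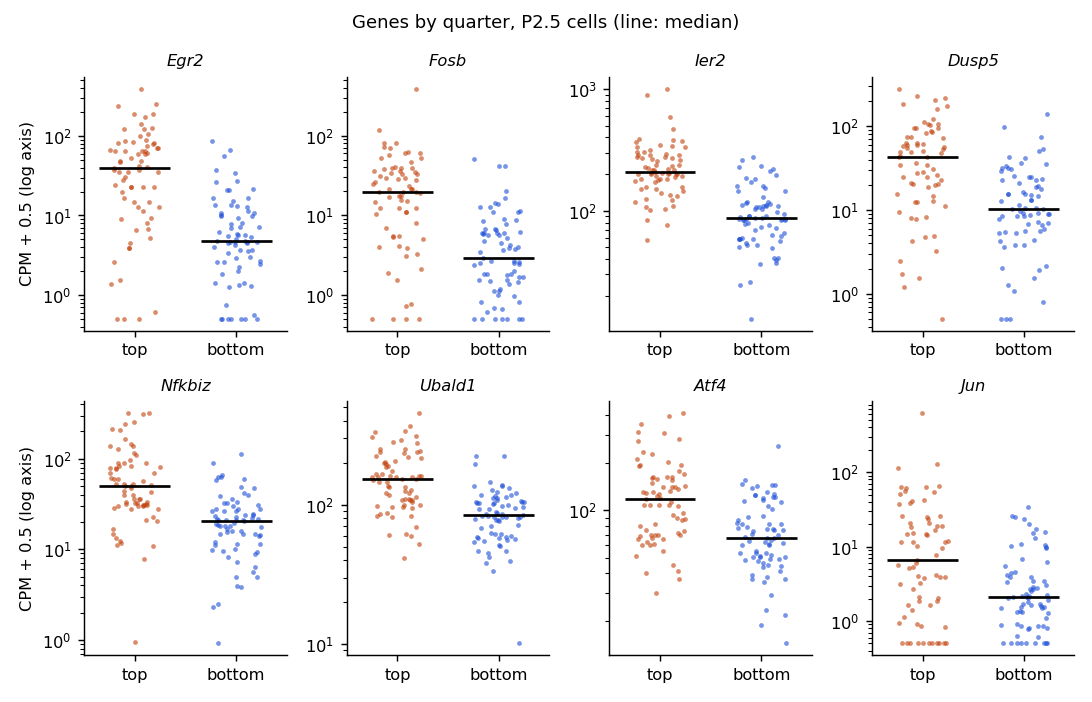
CPM + 0.5 (log axis) of 7 genes that the choice did not use and of Jun, which it did, in 71 top cells (left, orange) and 73 bottom cells (right, blue); each point is a cell and the line is the median. The Egr2 medians are 39.3 CPM (top) and 4.28 CPM (bottom) and the Ier2 medians 207.2 CPM (top) and 85.96 CPM (bottom), and the groups overlap in every panel.

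Several genes whose products end the response were also higher in the top group. Dusp5, which encodes a nuclear phosphatase of ERK, had a lowest, median and highest value of 0, 42.9 and 279.9 CPM in the top cells, against 0, 9.81 and 139.9 CPM in the bottom cells. Of the top cells 58 of 71 lay above the bottom median, and the log2 ratio was 1.69, or 1.65 without the libraries with markers of other cell types. Spry1, an inhibitor of receptor tyrosine kinase signalling, had medians of 21.2 CPM in the top cells and 8.83 CPM in the bottom cells (1.14, or 1.02 without those libraries). Zfp36, whose product marks AU-rich mRNAs for decay, had medians of 6.32 CPM in the top cells and 1.70 CPM in the bottom cells (2.05, or 1.11 without them). Dusp1 and Dusp4, phosphatases of several MAP kinases, had ratios of 1.22 and 1.39 with medians between 0.317 and 1.53 CPM, and for Dusp4 the top median (1.38 CPM) lay below the bottom median (1.53 CPM). Dusp2 was the member furthest the other way (-0.30), and Nfkbia, the inhibitor of NF-kappaB, stood at 0.27.

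Of the 4 immediate early lists together, 66 genes besides the selecting genes were measured. Of these 21 (31.8%) were at least 2-fold higher in the top group and 0 at least 2-fold lower, against 4.36% and 0.77% of all measured genes. Their median log2 ratio was 0.74 and 63 of 66 lay above 0, against a median of 0.03 and 54.5% above 0 among all measured genes. A member that passed the filter through the top group alone could only lie above 0. Such members were not counted apart, so these counts are a description. With no filter on low values the list median was 0.70, against 0.03 for all genes. Without the libraries with markers of other cell types, 13 of 59 measured members (22.03%) were at least 2-fold higher and 0 lower, against 2.59% and 1.05% of all genes, with a median of 0.55. By list, the members at least 2-fold higher were 3 of 4 other EGR and NR4A genes (median 1.51), 10 of 35 other immediate early factors (0.66) and 6 of 18 feedback inhibitors (0.59). Over all P2.5 cells, 55 of 61 members had a rank correlation with the sum above 0 (median 0.15), against a median of -0.01 over 14184 genes. The direction of the list median was the same in each of the 25 alternative settings, which ran from 0.43 to 1.23. Drawn within 4 strata of total counts the list median was 0.72, and within 4 strata of counts per spike-in count it was 0.72.

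**Figure D3:**
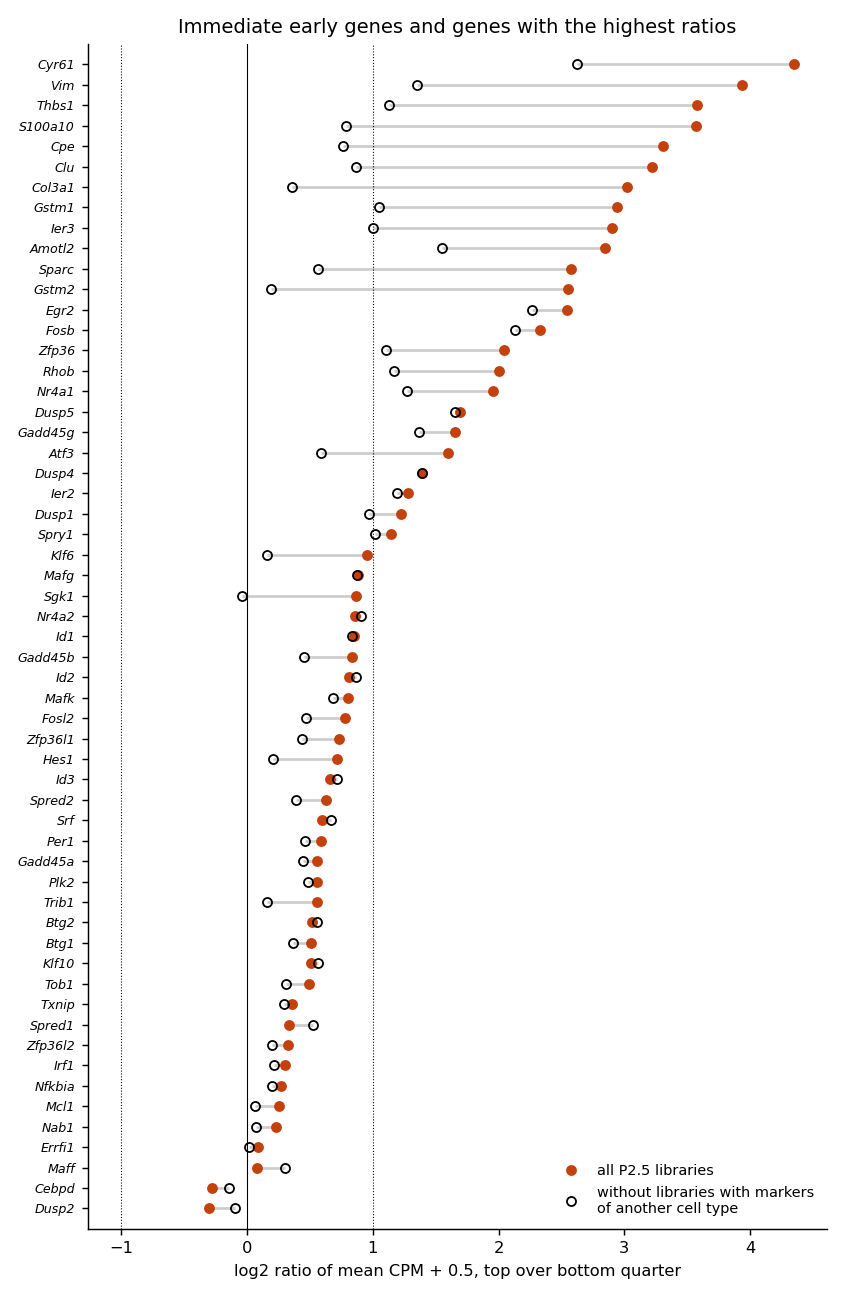
Log2 ratio of mean CPM + 0.5, top over bottom group. Shown are immediate early genes with at least 5 mean CPM and the 12 named genes with the highest ratios. The latter had at least 10 mean CPM, a count in 50% of cells and medians apart in the same direction. Filled points are all P2.5 libraries, and open circles leave out libraries with markers of another cell type. Egr2, Fosb, Ier2 and Dusp5 keep nearly the same ratio, whereas Vim is 3.94 and 1.35 and Col3a1 3.02 and 0.36.

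Among genes with at least 10 mean CPM and a count in 50% of the cells of the higher group, and with medians apart in the same direction, the highest ratios belonged mostly to genes that were high in few top cells. The 12 highest under these conditions were Cyr61 (4.35), Vim (3.94), Thbs1 (3.58), S100a10 (3.57), Cpe (3.31), Clu (3.22), Col3a1 (3.02), Gstm1 (2.94), Amotl2 (2.84), Sparc (2.58), Gstm2 (2.55) and Egr2 (2.55). Vim, the intermediate filament gene of mesenchymal cells, had 0, 0.332 and 871 CPM in the top cells, against 0, 0.229 and 7.13 CPM in the bottom cells, so the medians lay together and a few top cells stood far above. For the 11 genes other than Egr2, 63.2% (Amotl2) to 90.5% (Clu) of the top group's level lay in the 12 cells with markers of other cell types, against 28.96% for Egr2. Without those libraries 6 of the 12 were still at least 2-fold higher, against 2.59% of all genes, among them Cyr61 (2.62), the matricellular target of SRF and YAP. The 12 were chosen by their ratios in P2.5 libraries of the same set, so this count is a description only.

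Markers of somatic cells were likewise high in few top cells. Of 12 granulosa and pregranulosa markers 9 were measured and 8 were at least 2-fold higher in the top group (median 2.52), against 4.36% of all genes. Apart from Kitl (means of 7.17 CPM in the top cells and 2.05 CPM in the bottom cells), these 9 passed the filter through the top group alone. The filter thus fixed the direction of their ratios, and the count is a description only. The summed level of the 12 granulosa markers ran from 0 to 2193 CPM in the top cells (median 5.90). In the bottom cells it ran from 0 to 41.04 CPM (median 2.95), and Fshr was at 0 in both. Of 8 stroma markers 7 were measured and 5 were at least 2-fold higher (median 1.55), among them Pdgfra and Tcf21, which passed the filter through the top group alone. Summed levels of stroma markers were 0 to 1552 CPM in the top cells (median 21.8) and 0.0959 to 86.1 CPM in the bottom cells (median 10.8). Without the libraries that show such markers 0 of 3 measured granulosa markers and 1 of 5 stroma markers were at least 2-fold higher (medians 0.51 and 0.36), against 2.59% of all genes. Without these libraries the ratios of Egr2, Fosb, Ier2 and Dusp5 were 2.26, 2.13, 1.20 and 1.65, and those of Atf3, Zfp36 and Nr4a1 were 0.59, 1.11 and 1.28, against 1.60, 2.05 and 1.96 with them. For Ier3, an immediate early gene, 80.98% of the top level lay in the 12 marked cells. The part of somatic RNA in these ratios was not tested.

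The list of kinases and factors that lie upstream of the response had a median ratio of 0.05, against 0.03 for all genes. Of 32 such genes 2 were at least 2-fold higher in the top group and 0 lower, against 4.36% and 0.77% of all genes, and 3 were higher without the libraries with markers of other cell types, against 2.59%. Elk4, which encodes an SRF partner factor, had medians of 12.8 CPM in the top cells and 8.43 CPM in the bottom cells (0.87, or 1.03 without the libraries with markers of other cell types). Srf itself had medians of 10.5 CPM in the top cells and 4.78 CPM in the bottom cells (0.60). Map2k1, an ERK kinase gene, had medians of 136.7 CPM in the top cells and 173.6 CPM in the bottom cells (-0.26), and the JNK gene Mapk9 had 63.4 CPM in the top cells and 80.9 CPM in the bottom cells (-0.25). Another JNK gene, Mapk8, had a ratio on the other side (0.48).

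Lists of other stress programmes had medians from -0.11 to 0.29, against 0.03 for all genes, and their counts are to be read against the 4.36% of all genes that were at least 2-fold higher (2.59% without the libraries with markers of other cell types). Of 17 heat shock chaperone genes 2 were at least 2-fold higher (0 without those libraries), and the median was -0.11. Hspd1, the mitochondrial chaperone, had a lowest, median and highest value of 97.1, 636 and 1151 CPM in the top cells, against 426, 845 and 1259 CPM in the bottom cells (-0.42). Of 19 genes of the unfolded protein and integrated stress responses 1 was at least 2-fold higher. It was Trib3, a target of ATF4, with medians of 2.32 CPM in the top cells and 1.27 CPM in the bottom cells (1.45, or 1.32 without those libraries). Of 11 oxidative stress genes 3 were at least 2-fold higher, and 1 without those libraries, the metallothionein gene Mt1. Of the 11 genes 8 lay above 0, against 54.5% of all genes. Their median was 0.18, but -0.03 without those libraries, against 0.03 for all genes there. Mt1 had medians of 6.47 CPM in the top cells and 0.759 CPM in the bottom cells (1.58, or 1.06). Of 17 p53 targets and checkpoint genes 1 reached 2-fold, Cdkn1a, which encodes the cell cycle inhibitor p21. Cdkn1a had medians of 13.4 CPM in the top cells and 5.40 CPM in the bottom cells (1.07, or 0.97 without those libraries). In the BCL2 and caspase list 2 of 15 genes reached 2-fold in the top group (1 without those libraries) and 13 of 15 lay above 0, with a median of 0.29 (0.12 without them).

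Genes that followed the sum in the opposite direction had ratios well under 2-fold. The 10 genes with the lowest rank correlation with the sum (rho -0.42 to -0.35) had log2 ratios of -0.66 to -0.35. They included the proteasome genes Psmd1 and Psmd2, the chaperonin genes Tcp1 and Cct7, Hspd1, and the ubiquitin pathway genes Rnf14, Ube2d3 and Fbxl5. Psmd1, a scaffold of the regulatory particle, had 14.1, 236.9 and 472 CPM in the top cells, against 88.8, 319.7 and 486 CPM in the bottom cells (-0.45). Of the top cells 7 of 71 lay above the bottom median, and 62 of 73 bottom cells lay above the top median. Psmd2 had medians of 739.8 CPM in the top cells and 989 CPM in the bottom cells (-0.43), and Rnf14 had 82.7 CPM in the top cells and 138.2 CPM in the bottom cells (-0.66). Without the libraries with markers of other cell types the ratios of the 10 genes ran from -0.57 to -0.26.

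After this ranking was seen, 2 complexes were looked at whole. Of 32 proteasome subunit genes 31 lay below 0 with a median of -0.20, and of 8 chaperonin genes 8 lay below 0 with a median of -0.29. Among all measured genes 54.5% lay above 0 and the median was 0.03. The members include Psmd1, Psmd2, Tcp1 and Cct7, which prompted the look, so the counts are a description only. No member reached 2-fold. In the other direction, 22 of 23 splicing kinase, cyclin L and retained-intron genes, also listed after the ranking was seen, lay above 0 (median 0.31). Clk4, a kinase of splicing factors, had medians of 98.4 CPM in the top cells and 56.5 CPM in the bottom cells (0.85), and Leng8 had 446 CPM in the top cells and 236.4 CPM in the bottom cells (0.91). Scaled to spike-in counts, on which the median of all genes is -0.16, the medians were -0.36 for the proteasome, -0.42 for the chaperonin and 0.01 for the splicing list. Cells with a high sum held somewhat fewer counts (rho -0.21 with the total over all P2.5 libraries, 0.25 with the mitochondrial share), and the part of depth in these small differences was not tested.

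**Figure D4:**
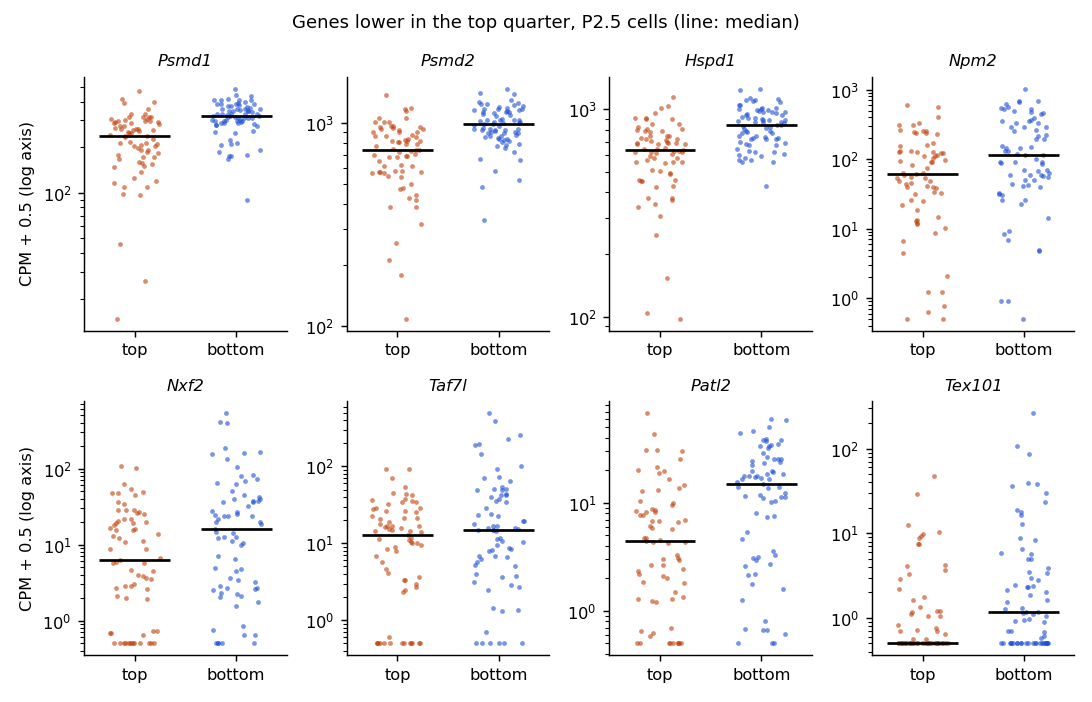
CPM + 0.5 (log axis) of 8 genes with lower means in the top group, in 71 top cells (left, orange) and 73 bottom cells (right, blue); the line is the median. For Psmd1 the medians are 236.9 CPM (top) and 319.7 CPM (bottom), and for Nxf2 the highest cells reach 107.3 CPM (top) and 537 CPM (bottom).

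Among named genes with the lowest ratios, several are known from meiotic germ cells of the testis. Nxf2, which encodes an mRNA export factor, had 0, 5.81 and 107.3 CPM in the top cells, against 0, 15.5 and 537 CPM in the bottom cells (-1.62, or -1.42 without the libraries with markers of other cell types). Taf7l, a paralogue of the general transcription factor gene Taf7, had 0, 12.2 and 92.7 CPM in the top cells, against 0, 14.4 and 494 CPM in the bottom cells (-1.35). The groups overlapped, the medians lay close together, and 0 of 71 top cells and 7 of 73 bottom cells held at least 100 CPM of Taf7l. Tex101, a germ cell surface protein gene, had the lowest ratio (-1.96) with medians of 0 CPM in the top cells and 0.663 CPM in the bottom cells. The others were Fam151a (-1.26), Bglap3 (-1.21), Tktl1 (-1.17), Mef2b (-1.07), Patl2 (-1.05), Sp110 (-1.04), Fbxo40 (-1.01), Tnfrsf8 (-0.94) and Npm2 (-0.92). Without those libraries 9 of the 12 were at least 2-fold lower, against 1.05% of all genes. The 12 were chosen by their ratios in P2.5 libraries of the same set, so this count is a description only. In P6.5 groups chosen by the same rule (below), 3 of the 11 that were measured lay above 0 (-2.16 to 0.33), against 53.5% of all genes.

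Of the oocyte programmes, the growth, subcortical maternal complex and meiotic lists had medians below that of all genes, whereas the transcription factor, follicle activation and stored mRNA lists lay near it. Of 27 measured growth and egg coat genes 0 were at least 2-fold higher, 1 was at least 2-fold lower and 7 lay above 0 (median -0.20), against 4.36% higher and 0.77% lower of all genes. Npm2, a histone chaperone stored for the embryo, had 0, 59.7 and 603 CPM in the top cells, against 0, 112.8 and 1032 CPM in the bottom cells. Of 8 genes listed with the subcortical maternal complex 1 lay above 0 (median -0.21). The exception, Ooep, had medians of 409 CPM in the top cells and 296.2 CPM in the bottom cells (0.56), whereas Nlrp14 had 419 CPM in the top cells and 812 CPM in the bottom cells (-0.71). NLRP genes share sequence, so the split of reads between them is uncertain. Meiotic prophase genes had a median of -0.17 with 0 of 32 members at 2-fold, and oocyte transcription factors one of 0.02. The list of KIT, PI3K, mTOR and FOXO genes, the pathway that governs activation of primordial follicles, stood at -0.01 with 0 of 25 members at 2-fold in either direction. Of 15 stored mRNA regulators 8 lay above 0 (median 0.00) and 2 were at least 2-fold lower. At its ends, Patl2, a repressor of stored mRNAs, had medians of 3.96 CPM in the top cells and 14.3 CPM in the bottom cells (-1.05), and Ybx2, a germ cell mRNA-binding protein gene, had a ratio of 0.45. The 6 germ cell markers ran from Ddx4 to Sycp3, a gene of the synaptonemal complex (0.31). The helicase gene Ddx4 had medians of 233.03 CPM in the top cells and 345 CPM in the bottom cells (-0.46).

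**Figure D5:**
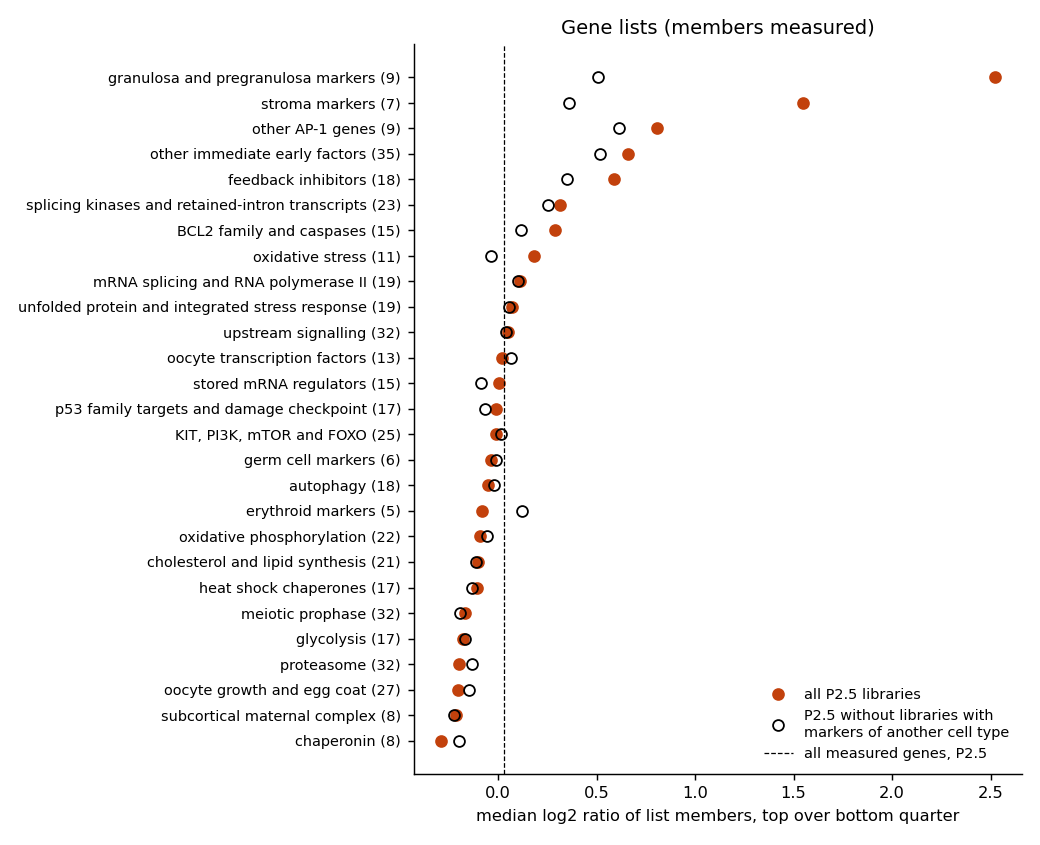
Median log2 ratio of the measured members of each gene list with at least 5 measured members (filled points: all P2.5 libraries; open circles: without libraries with markers of another cell type; dashed line: all measured genes at 0.03). Granulosa markers move from 2.52 to 0.51 and other AP-1 genes from 0.81 to 0.62.

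The same choice was made among the 47 P6.5 libraries, which the P2.5 groups did not use, with 11 libraries at either end. In CPM the sum was lower there. It had a lowest, median and highest value of 101.8, 151.4 and 247.7 CPM in the top group, against 21.01, 43.5 and 49.9 CPM in the bottom group. All 47 P6.5 libraries had a median of 69.6 CPM, against 236.5 CPM over all P2.5 libraries and 221.3 CPM over 22 E17.5 libraries, all 22 of which showed markers of other cell types. The sum was made up differently at E17.5, with medians of 65.04 CPM for Jun and 43.9 CPM for Egr1. At P2.5 these were 3.09 and 170.4 CPM. Median gene counts per spike-in count were 81.3 at E17.5, 464.9 at P2.5 and 3203 at P6.5, so the order in CPM need not hold per cell. Of 60 measured immediate early genes 11 (18.3%) were at least 2-fold higher in the P6.5 top group and 1 lower, against 4.24% and 1.97% of 14301 genes. Their median ratio was 0.18 and 44 of 60 lay above 0. Markers of other cell types were seen in 4 of 11 top and 1 of 11 bottom libraries, and without all 7 such P6.5 libraries 6 of 56 members were higher and 4 lower, against 3.43% and 3.39% of all 14138 genes. In that setting the list median was 0.04, against 0.02 for all genes, and 53.6% of members lay above 0, against 52.3% of all genes.

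At P6.5, Fosb had a lowest, median and highest value of 1.85, 7.62 and 17.5 CPM in the top libraries, against 0, 0.132 and 13.4 CPM in the bottom libraries. All 11 top libraries lay above the bottom median, and the log2 ratio was 1.32. Egr2 had 0, 3.07 and 58.2 CPM in the top libraries, against 0, 0 and 5.64 CPM in the bottom libraries (2.07), with 9 of 11 above the bottom median. Ier2 had medians of 94.02 CPM in the top libraries and 77.8 CPM in the bottom libraries (0.35). Dusp5 had 20.2 CPM in the top libraries and 15.2 CPM in the bottom libraries (0.09), and for both genes the groups overlapped widely. The genes with the lowest rank correlation at P2.5 stood between -0.20 and 0.13 at P6.5, the proteasome at 0.02, the chaperonin at 0.04 and the splicing list at 0.05. Among 340 genes 2-fold or more higher in the P2.5 top group and measured at both stages, 73.8% lay above 0 at P6.5, against 53.7% of all 13508 genes. Of those called without P2.5 libraries with markers of other cell types it was 61.95%. The P6.5 groups in this look-up still held the P6.5 libraries with such markers. Among 84 genes 2-fold or more lower, 31 (36.9%) lay above 0 at P6.5. Whether the ratios differ between the stages was not tested.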

How the data were processed

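Single P2.5 oocyte libraries were compared by the summed level of Fos, Egr1, Jun and Junb. The authors deposited 1 table of raw read counts per gene and 1 table of FPKM values (fragments scaled to transcript length and library total), with 1 column per library. Per the submitters' processing notes, STAR 2.7.10b, HTSeq 0.13.5, RSEM 1.3.3 and build mm10 were used. For the roles of these tools, the annotation and the strand setting, the labels hold no statement (not given in the sources used here). Deposited count columns hold 54658 gene rows and 92 spike-in rows, which were left out of library sizes. All columns were matched to a library by name, and 0 belonged to none.

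Of 317 P2.5 libraries (293 cells), 158 entered the comparison, and 272 lacked markers of other cell types. No doublet caller was run, and marker lists of other cell types served instead. Counts were scaled to CPM per library, or per pair of libraries counted as 1 cell. The ratio of mean CPM over cells used 0.5 CPM added to both means. Gene counts per library ran from 1.45e+06 to 1.84e+07 in the top group and from 3.29e+06 to 2.40e+07 in the bottom group. The design gives no replicate, so groups were described by levels, ratios and counts of genes at least 2-fold apart. Intervals are exact (Clopper-Pearson for shares, conditional Poisson for summed counts) at 95%. Those of shares take libraries as independent draws, with both libraries of a pair counted. Those of summed counts cover counting error of reads only, and neither kind covers the spread between animals.

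Genes are named by rule: 12 at either end of the ratio (at least 10 mean CPM in the higher group, detected in 50% of its cells, medians apart in the same direction), and the 10 at either end of the rank correlation with the sum. To these came up to 3 members at either end of each list and immediate early genes with at least 5 mean CPM. The proteasome, chaperonin and splicing lists with their named members and the X-linked genes were chosen after their values were seen. The selecting genes and the 30 lists of 470 genes were chosen with earlier results of these data known.

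Alternatives changed the level (summed counts, median), the scaling (TMM from edgeR 4.0.16, median-of-ratios, deposited FPKM, spike-ins), the added value, the filter, the share of libraries, the merging of pairs, the score, and the libraries (other cell types, depth, library number, RNA content). Promoters came from RefSeq (GRCm38.p6) and gene positions from GENCODE of the same build. Python 3.11.15, numpy 2.4.6, pandas 2.3.3, scipy 1.17.1 and R 4.3.3 were used, and the ratio step was tested on simulated data.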

Additional observations from a re-analysis of the deposited data

How the results depend on the processing

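The median ratio of the immediate early genes kept its direction in all 25 alternatives (0.43 to 1.23). At P6.5 it ran from 0.04 to 0.43 in 4 alternatives, and the 0.04, without libraries with markers of other cell types, was close to the 0.02 of all genes. The share of measured genes at least 2-fold apart depended on the settings. Against 4.36% higher, it was 0.798% with at least 10 mean CPM, 2.43% with deposited FPKM, 1.41% with the median CPM over cells, 2.56% with 1 CPM added, 11.8% with 10% of libraries at either end, 2.86% with 33.3%, 1.22% with 50%, and 2.59% without libraries with markers of other cell types. Against 0.77% lower, it was 0.117% with at least 10 mean CPM, 2.08% per spike-in count, 1.49% with 0.1 CPM added, 0.335% with 1 CPM added, and 3.80%, 0.379% and 0.109% with 10%, 33.3% and 50% of libraries. The cause was not tested beyond what each setting changes by construction. The other alternatives, 17 for genes higher and 18 for genes lower, gave counts within 1.5 times, although with no filter on low values, where 32182 genes enter, the shares were 2.66% and 0.463%. With groups drawn by the other 3 genes, the ratio of Jun was 0.80 without libraries with markers of other cell types, against 1.86. Spike-in scaling moved the median of all genes to -0.16 and median-of-ratios scaling to 0.10, against 0.03. Genes of low mean level rest on reads in few cells. No paired analysis was possible because the result comes from no test and library numbers shared between stages only name libraries.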

Other observations

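Several of the genes lower in the top group lie on the X chromosome, which was noticed after the ratios were seen. Of the genes at least 2-fold lower with a chromosome in GENCODE, 11 (9.65%) were X-linked, against 3.68% of all measured genes and 17 of 645 (2.64%) of the genes at least 2-fold higher. Among the 11, Elf4, Ppef1 and Supt20-ps had means under 1 CPM in the top cells and passed the filter through the bottom group alone, which fixed their direction. Nxf2 and Taf7l, also among the 11, were high in the same cells, so the count is a description only. The X-linked share of counts had a lowest, median and highest value of 1.89%, 3.14% and 4.02% in the top cells, against 2.58%, 3.40% and 4.48% in the bottom cells, so the ranges overlapped widely.

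The highest levels of Nxf2 and Taf7l, both X-linked, were in the same cells. At least 100 CPM of Nxf2 was found in 1 of 71 top cells and 9 of 73 bottom cells, and of Taf7l in 0 top and 7 bottom cells. Both genes reached 100 CPM in 0 top and 6 bottom cells. For Tktl1, a transketolase-like gene on the X chromosome, the numbers were 5 top and 24 bottom cells.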
